A study of Hordeum vulgare subsp. vulgare with 8 samples.

Results

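MLOC_34508, annotated only as a ribosomal protein, and MLOC_7688, annotated as 60S acidic ribosomal protein P0, were followed through lists of alternative 3' splicing (A3S) and alternative 5' splicing (A5S) events. They are 2 of the 4634 genes in these lists, and all rows with their identifiers were taken, 27 listings of 6 distinct events. The genes were picked from the lists because an exon of each was very deeply read and because each had an event in all 8 libraries. Their depth rank and that listing are therefore descriptions, with no test. RNA came from germinating embryos of 4 barley (Hordeum vulgare) varieties, Bass, Harrington, Stirling and Baudin. The seeds had imbibed water in the dark at 21 °C for 48 h or 24 h, and the embryos were separated from the endosperm. There was 1 library per variety and time, so the 4 varieties gave the only spread, which includes their genetic differences. All seeds were sterilised with hypochlorite and rinsed before imbibition, and all came from the same field trial.

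Ribosomal proteins make up the ribosome together with ribosomal RNA, and they are known in germinating embryos as part of the translation machinery that restarts after imbibition. P0 anchors the P1 and P2 proteins of the large subunit's stalk, where translation factors bind. In A3S an intron ends at a different acceptor, so the 5' end of the next exon moves. In A5S an intron starts at a different donor, so the 3' end of the exon before it moves. A shift that is a multiple of 3 nt keeps the reading frame if it lies in coding sequence, and other shifts change it. Whether the sites lie in coding sequence or a UTR was not examined here.

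The lists held between 1711 and 1937 events per library at 48 h and between 1768 and 2537 at 24 h. Each event has a constitutive exon next to the intron, the annotated exon and its alternative form, with the mean read depth of each. This depth was read as the average number of reads over a base. For constitutive and annotated exons it was taken to count covered bases alone. The annotated exons had a median depth between 25.8 and 28.0 at 48 h and between 30.4 and 32.3 at 24 h. The depths are not scaled in the lists. Where scaled depths are given, each library was divided by a factor set by the 374 exons that all 8 libraries list, and the factors were between 0.897 and 1.18. Of 6 embryo marker genes looked for, a late embryogenesis abundant protein gene (MLOC_77777) and a lectin gene (MLOC_59149) were listed in all 8 libraries and 3 were in none. The 3 chlorophyll a-b binding protein genes looked for as leaf markers were also in none. A gene enters the lists only with an event, so absence says nothing of its level.

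MLOC_34508 lies on the minus strand of linkage group LG05 of the Morex assembly used by the authors. The lists give 4 of its exons, which in the direction of transcription are 5, 220, 166 and 206 nt long. The exon of 5 nt lies from 117858403 to 117858407, and the intron after it is 528 nt long. The exon of 220 nt lies from 117857655 to 117857874. It is followed after 262 nt by the exon of 166 nt (117857227 to 117857392). After an intron of 318 nt comes the exon of 206 nt (117856703 to 117856908). MLOC_7688 lies on the minus strand of LG04, and its listed exons are 258, 69, 99 and 393 nt long. The exon of 258 nt (62776595 to 62776852) is separated from that of 69 nt (62776443 to 62776511) by an intron of 83 nt. The exon of 99 nt lies from 62775831 to 62775929, and an intron of 86 nt leads to the exon of 393 nt (62775352 to 62775744). The 513 nt between the exons of 69 nt and 99 nt are not described in the lists.

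**Figure D1:**
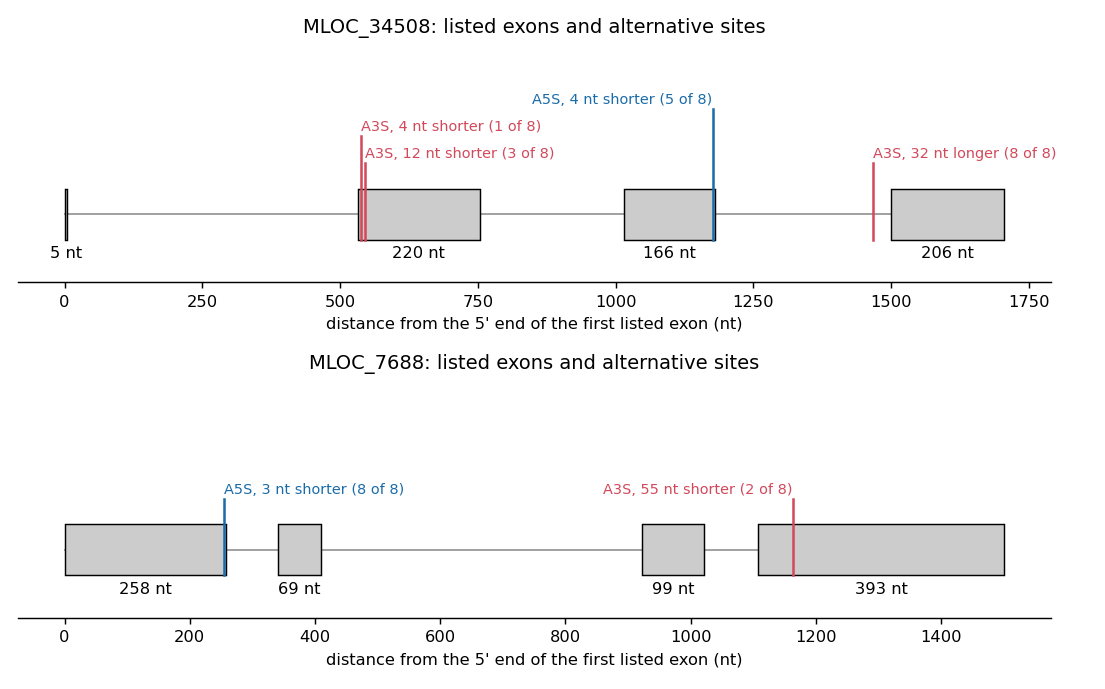
Listed exons (grey boxes, to scale) and alternative sites of MLOC_34508 (top) and MLOC_7688 (bottom), by distance in nt from the 5' end of the first listed exon, with A3S in red, A5S in blue and the number of libraries that list each event in brackets. In MLOC_34508 the A5S site listed in 5 libraries and the A3S site listed in 8 libraries bound the same intron.

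MLOC_34508 had 4 distinct events, 3 of A3S and 1 of A5S, and MLOC_7688 had 1 of each type. Among all 4634 listed genes, 424 (9.15%) had at least 4 distinct events and 1056 (22.8%) had both types. In MLOC_34508 the event of all 8 libraries moved the acceptor of the 206-nt exon 32 nt into the intron, which gave an exon of 238 nt and an intron of 286 nt and changes the frame. At the other end of the same intron, the A5S event removed 4 nt from the 166-nt exon, which also changes the frame. It was listed in Stirling and Baudin at 48 h and in Bass, Harrington and Baudin at 24 h. The remaining events moved the acceptor of the 220-nt exon. A shortening by 12 nt, which keeps the frame, was listed in Harrington at 48 h and in Harrington and Baudin at 24 h. A shortening by 4 nt, which changes it, was listed in Bass at 48 h alone.

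In MLOC_7688 the A5S event of all 8 libraries removed 3 nt from the 258-nt exon, which keeps the frame, and gave an intron of 86 nt. The A3S event removed 55 nt from the 393-nt exon, which changes the frame and lengthens the intron to 141 nt. It was listed in Bass and Stirling at 24 h and in no library at 48 h. Only 2.08% of the 8325 distinct events of the series were listed in all 8 libraries, which is the property the genes were chosen for. The frame was kept by 2 of the 6 events, compared with 37.5% of all distinct events. An event missing from a list was not called there, which is not a measured 0.

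The lists do not give reads on the junctions. The depth of the bases between the annotated and the alternative site was therefore computed from the depths of both exon forms and set against the part of the exon that both forms share. In a shortened exon these bases belong to the annotated form, and in a lengthened exon to the alternative form. In a lengthened exon they are also bases of the annotated intron, so RNA that keeps the intron would add to their depth. Their depth therefore cannot be assigned to the alternative form alone.

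In MLOC_7688 the 3 nt at the donor of the 258-nt exon were less deeply read than the rest of the exon in all 8 libraries, and the ratio was lower at 48 h in every variety. At 48 h their depth was 46.7% of that of the shared part for Bass, 46.3% for Harrington, 44.3% for Stirling and 43.7% for Baudin, against 56.5%, 52.7%, 49.1% and 47.1% in the same varieties at 24 h. The 4 libraries at 48 h were all below the 4 at 24 h, and the varieties had the same order at both times. The mean was 45.2% ± 1.48 at 48 h and 51.4% ± 4.12 at 24 h (SD, n = 4 varieties). The difference in percentage points was -6.13 ± 2.72 (SD, n = 4 pairs), and it was negative in 4 of 4 varieties (two-sided exact permutation of signs over varieties, p = 0.13). No smaller p-value is possible with 4 varieties. In limma over the 173 events listed in all 8 libraries, the log2 difference of the ratio was -0.18 with a standard error of 0.10 and an adjusted p = 0.568. No event of the 173 passed an adjusted p of 0.05 (0.00%), and 21 had an unadjusted p below it. All libraries at 48 h lay below all at 24 h in 5.20% of the 173 events, and the ratio was lower in 4 of 4 varieties in 13.9%. The shared part had a depth between 1550 and 2261, and rounding of the deposited depths moves the depth of the 3 nt by at most 0.43.

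In MLOC_34508 the 32 intronic nt upstream of the 206-nt exon were covered at a few percent of the exon. Their depth was 2.70% of the exon for Bass, 2.58% for Harrington, 2.17% for Stirling and 2.57% for Baudin at 48 h, against 3.27%, 2.40%, 2.53% and 3.54% in the same varieties at 24 h. The times overlapped, and Harrington was the variety with the higher value at 48 h. The mean was 2.50% ± 0.231 at 48 h and 2.94% ± 0.554 at 24 h (SD, n = 4). The log2 difference was -0.21 with a standard error of 0.13 (limma, adjusted p = 0.604), and 3 of 4 varieties were lower (same exact permutation test, p = 0.25). In reads this was a depth between 26.0 and 43.7, beside between 1012 and 1623 on the exon itself.

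The 4 nt that the A5S event of MLOC_34508 removes were read at 44.7% of the shared part of the 166-nt exon in Stirling and 44.9% in Baudin at 48 h. At 24 h the values were 46.9% in Bass, 42.7% in Harrington and 45.0% in Baudin. These 5 libraries thus spanned 42.7% to 46.9%, and Baudin, listed at both times, differed by -0.11 percentage points. With 1 variety listed at both times there was no test.

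The sites of the 220-nt exon of MLOC_34508 behaved differently in depth. The 12 nt removed by the frame-keeping event were at 1.47% of the shared part in Harrington at 48 h, and at 1.78% in Harrington and 1.97% in Baudin at 24 h. The exon they belong to was the deepest of either gene, with a shared depth between 4539 and 6379 in these libraries. In Bass at 48 h the first 4 nt had a depth of 8.0 beside 3094 for the rest, or 0.259%. The annotated start of this exon was thus covered only thinly in every library that listed an event there. In MLOC_7688 the 55 nt of the A3S event were at 30.3% of the shared part in Bass and 24.7% in Stirling, both at 24 h.

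**Figure D2:**
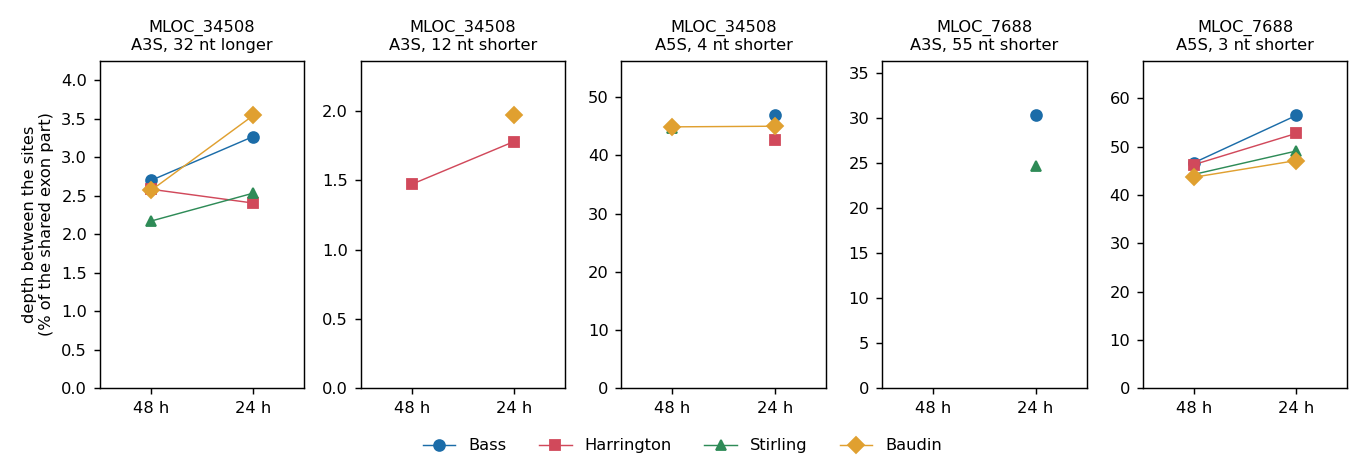
Depth of the bases between the annotated and the alternative site as a percentage of the depth of the shared exon part (y axis, a separate scale from 0 for each event) at 48 h and 24 h, with 1 point per library and a line joining the libraries of a variety. For the 3 nt of MLOC_7688 the values at 48 h lie between 43.7% and 46.7%, below all values at 24 h, and for the 4 nt of the MLOC_34508 A5S event the points of Stirling and Baudin at 48 h nearly coincide.

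The same percentage was computed for events of other genes of like geometry with a shared depth of at least 10, as a median over the libraries of each event. For A5S events that remove 3 nt, 71 events of other genes had a median of 15.1% (quartiles 0.722% and 32.1%), and the MLOC_7688 median of 46.9% was above 77.5% of them. For A5S events that remove 4 nt, 63 events had a median of 19.9%, and the MLOC_34508 median of 44.9% was above 79.4% of them. The A3S events of both genes ranked low among events of like geometry. In the extension the bases compared belong to the alternative form, and in the shortenings to the annotated form. The 32-nt extension, at a median of 2.57%, was above 21.8% of the 179 extensions by 25 to 40 nt, whose median was 6.59%. The 12-nt event, at 1.78%, was above 8.39% of the 548 shortenings by 9 to 15 nt, whose median was 28.5%. The 4-nt A3S event was above 15.1% of 199 events, and the 55-nt event, at 27.5%, above 13% of the 369 shortenings by 40 to 70 nt. These are ranks among other genes, without a test, and most of the other genes were read less deeply.

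Depth differed widely between exons of the same gene, and in both genes it was higher in longer exons. In MLOC_34508 the 220-nt exon had a depth of 3038 in Bass and 4295 in Harrington at 48 h, and of 6037 in Harrington and 4700 in Baudin at 24 h. In the same libraries the 5-nt exon upstream of it had a depth of 5.6 and 6.4 at 48 h, and of 12 and 8.6 at 24 h. The longer exon was between 503 and 671 times as deep as the shorter. Over all 8 libraries the 206-nt exon was between 1.58 and 2.65 times as deep as the 166-nt exon. In MLOC_7688 the 258-nt exon had depths between 1541 and 2246, and the 69-nt exon after it between 2.00 and 11.9. The 393-nt exon had 3049 in Bass and 3034 in Stirling at 24 h, and the 99-nt exon before it had 454 and 328.

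In exon pairs of other genes whose annotated exon had at least 200 nt, constitutive exons of up to 119 nt had lower medians than longer ones. Among the classes up to 119 nt the order was not steady. The median depth was 21.6% of the annotated exon for 1 to 19 nt (27 pairs) and 23.2% for 20 to 59 nt (89 pairs). It was 12.1% for 60 to 79 nt (112 pairs) and 33.7% for 80 to 119 nt (462 pairs). Longer exons had 59.7% for 120 to 199 nt (668 pairs), 80.9% for 200 to 399 nt (711 pairs) and 97.2% from 400 nt (401 pairs). The 5-nt exon of MLOC_34508, at a median of 0.184%, was above 3.70% of the pairs of its class, and the 69-nt exon of MLOC_7688, at 0.249%, above 2.68%. The 99-nt exon of MLOC_7688, at 12.9%, was above 19.3%. The 166-nt exon of MLOC_34508, at 53.8%, was above 45.2%, near the middle of its class. Each percentage divides by the depth of the annotated exon, and the genes were picked for a very deeply read exon. Low ranks can follow from that choice, so they are descriptions without a test. The part of exon length in these depths was not tested.

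**Figure D3:**
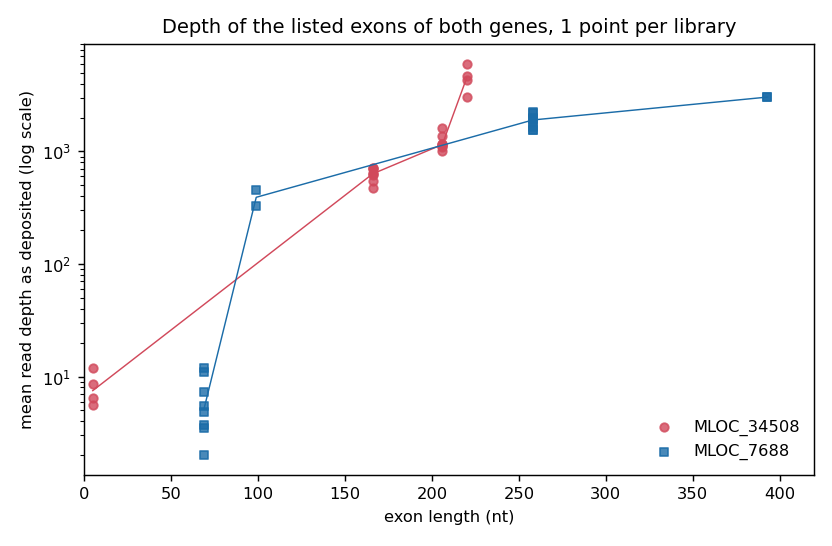
Mean read depth as deposited (log scale) against exon length in nt for the listed exons of MLOC_34508 (red circles) and MLOC_7688 (blue squares), 1 point per library that lists the exon and a line through the medians. Depth spans from 2.00 in the 69-nt exon of MLOC_7688 to 6037 in the 220-nt exon of MLOC_34508.

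The depth of 4 exons could be compared between the times in all varieties. For the 258-nt exon of MLOC_7688 the deposited depth was 1541 for Bass, 2206.5 for Harrington, 2002 for Stirling and 2246 for Baudin at 48 h, against 1858, 1562, 1948 and 1646 in the same varieties at 24 h. After scaling it was 2108 ± 391 at 48 h and 1594 ± 125 at 24 h (SD, n = 4). The times overlapped, because Bass had 1575 at 48 h and 1570 at 24 h. All 4 varieties had the higher scaled depth at 48 h (exact permutation over varieties, p = 0.13), by 0.0047 on the log2 scale in Bass and by 0.69 in Baudin, whereas the deposited depth was lower at 48 h in Bass.

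The 206-nt exon of MLOC_34508 had deposited depths of 1623 for Bass, 1159 for Harrington, 1381 for Stirling and 1012 for Baudin at 48 h, against 1119, 1145, 1088 and 1165 in the same varieties at 24 h. Scaled, it was 1357 ± 255 at 48 h and 1032 ± 109 at 24 h (SD, n = 4), and the times overlapped. The log2 difference was largest in Bass, at 0.81, and smallest in Baudin, at 0.04. The 166-nt exon of the same gene had deposited depths of 613 for Bass, 719 for Harrington, 712 for Stirling and 638 for Baudin at 48 h, against 627, 477, 547 and 692 at 24 h. Scaled, it was 707 ± 78.4 at 48 h and 530 ± 54.0 at 24 h (SD, n = 4), and every library at 48 h was above every library at 24 h, the nearest being 626 in Bass at 48 h and 607 in Baudin at 24 h. This separation was found in 13.9% of all 374 exons. The varieties did not rank alike in the 2 exons of this gene, since the difference in the 166-nt exon was largest in Harrington, at 0.70. After scaling, all 4 varieties had higher values at 48 h in both exons (exact permutation over varieties, p = 0.13 each), a pattern of 22.7% of all exons. The deeper 220-nt exon of this gene was listed at both times in Harrington alone, so it was not tested. Its scaled depth there was lower at 48 h, at 4790 against 6266 at 24 h, a log2 difference of -0.39. The thinly covered 5-nt exon was also lower at 48 h in Harrington, with a log2 difference of -0.76. In the same variety the 206-nt exon had 0.12 and the 166-nt exon 0.70, so the exons of this gene did not all change alike.

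In limma with variety as a block, none of the 4 exons passed an adjusted p of 0.05, and none had an unadjusted p below 0.05, which 38.8% of all 374 exons had. The log2 difference of 48 h minus 24 h was 0.41 with a standard error of 0.19 for the 166-nt exon (adjusted p = 0.139), 0.38 with 0.20 for the 206-nt exon (adjusted p = 0.197) and 0.39 with 0.20 for the 258-nt exon (adjusted p = 0.181). For the thinly covered 69-nt exon it was -0.59 with 0.36 (adjusted p = 0.242), and its scaled depth was 4.66 ± 2.39 at 48 h and 7.48 ± 4.09 at 24 h (SD, n = 4). Over all 374 exons the median difference was -0.03, and 88 (23.5%) passed, 44 (11.8%) higher and 44 (11.8%) lower at 48 h. That count fell to 12 without Baudin, to 31 without Bass and to 56 without Harrington. Without scaling, the median of all exons was -0.23, the calls were 28 higher and 80 lower, and the 3 deep exons had differences of 0.21, 0.17 and 0.18 in the order above, with adjusted p of 0.441, 0.518 and 0.515. Each of them was thus above the median of all exons under both scalings, and none was distinguishable from 0. Ribosomal protein genes have near-identical copies, and how the deposited depths count unspliced reads shared between copies is not given in the sources used here, so these depths are uncertain. In bulk embryos, fewer cells that express a gene and less RNA per cell cannot be told apart.

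**Figure D4:**
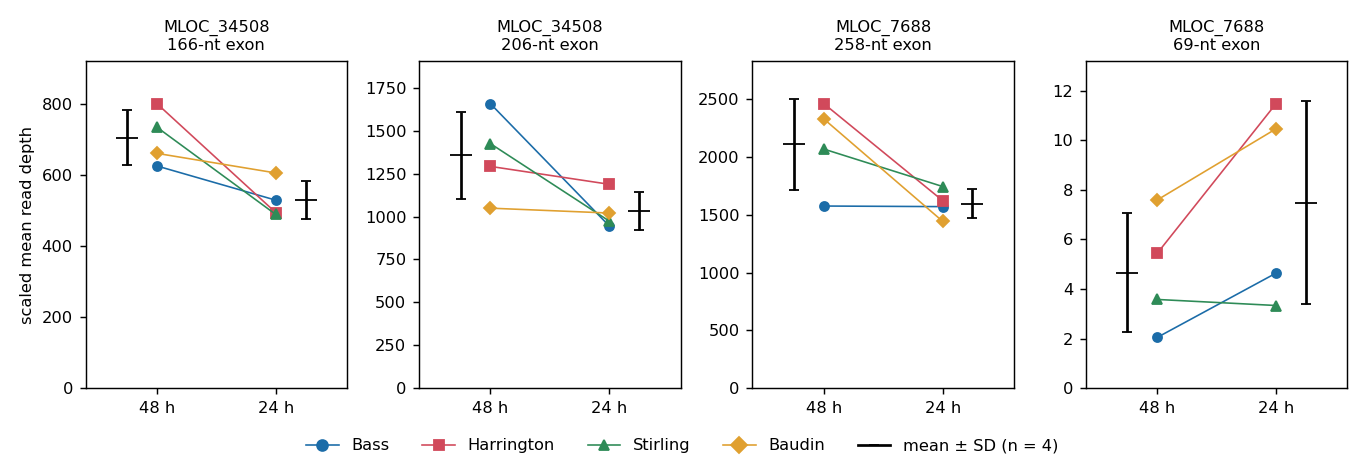
Scaled mean read depth (y axis, a separate scale from 0 for each exon) of the 4 exons listed in all libraries at 48 h and 24 h, with 1 point per library, a line joining the libraries of a variety, and the mean with SD over 4 varieties in black. The scaled depth of the 166-nt exon of MLOC_34508 is between 626 and 802 at 48 h and between 490 and 607 at 24 h, whereas the other exons overlap between the times.

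The 3 deep exons varied less than most other exons, and the 69-nt exon varied more. The SD of the log2 scaled depth over the 8 libraries was 0.26 for the 166-nt exon, 0.29 for the 206-nt exon and 0.29 for the 258-nt exon, against a median of 0.41 over all 374 exons. The 69-nt exon, with a deposited depth between 2.00 and 11.9, had an SD of 0.78, larger than that of 89.6% of the 374 exons. The genes were picked for deep exons, and the SDs were not compared among exons of like depth. They are therefore descriptions, and whether these exons vary less or more than others of their depth was not tested. Averaged over both times, the scaled depth of the 258-nt exon of MLOC_7688 was 2041 in Harrington, 1906 in Stirling, 1886 in Baudin and 1572 in Bass. For the 206-nt exon of MLOC_34508 the order was Bass at 1302, Harrington at 1240, Stirling at 1200 and Baudin at 1035. For the 166-nt exon of the same gene it was Harrington at 649, Baudin at 634, Stirling at 613 and Bass at 578. Bass was thus highest in one exon of MLOC_34508 and lowest in the other. In the 206-nt and 258-nt exons the gap between neighbouring varieties was smaller than the change between the times within at least 1 of them. Varieties were not tested against each other, as each had a single library at each time. By rank in a library, the 220-nt exon was from the 2nd to the 23rd deepest of all listed exons in the 4 libraries that list it. Over all 8 libraries the 258-nt exon was from the 26th to the 49th and the 206-nt exon from the 45th to the 92nd. The 166-nt exon was from the 109th to the 177th.

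The genes whose deepest exon varied most like the 206-nt exon of MLOC_34508 over the 8 libraries were MLOC_63089 (Pearson's r = 0.926), MLOC_50473, described as a kinesin-like protein (r = 0.90), and MLOC_71907 (r = 0.882). For the 258-nt exon of MLOC_7688 they were MLOC_43868 (r = 0.945), MLOC_51556 (r = 0.906) and the lectin gene MLOC_59149 (r = 0.877). These are the highest of 188 genes over 8 libraries that share their time and variety, and they are given as a description. Between the 206-nt exon of MLOC_34508 and the 258-nt exon of MLOC_7688 r was 0.169. The 166-nt exon of MLOC_34508, in which the varieties ranked differently, was not compared in this way.

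The study describes 25 other genes as ribosomal proteins, some of them as 30S, 50S or mitochondrial, in its lists of common alternatively spliced genes. They were picked by the study on these samples, so their listing is not independent evidence. In the A3S and A5S lists, 24 of them were present, 14 with both types and 12 with at least 4 distinct events. MLOC_55595, a 40S ribosomal protein S7, was the only one listed in all 8 libraries, and 1 of its 7 events was in all of them. The frame was kept by 38.4% of their 86 distinct events. The deepest exon listed had a median depth over libraries between 4.27 (MLOC_36471, 50S ribosomal protein L14) and 5156 (MLOC_73576, 60S ribosomal protein L17), with 665 in the middle. MLOC_73576 had 10 distinct events, none of them in more than 5 libraries, and MLOC_67266, a 40S ribosomal protein S3, had a median depth of 4596. The same measure was 2209 for MLOC_34508 and 2104 for MLOC_7688. It depends on which exons a library lists, since the 220-nt exon of MLOC_34508 alone had a median of 4498 over its 4 libraries.

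Only MLOC_55595 could be tested among these genes, and 0 of its 2 exons passed in either direction. Its exon from 59645254 to 59645377 had a scaled depth of 955 ± 33.1 at 48 h and 752 ± 119 at 24 h (SD, n = 4), higher in 4 of 4 varieties, with a log2 difference of 0.36 and a standard error of 0.19 (limma, adjusted p = 0.185). Its exon from 59645470 to 59645543 had 58.7 ± 7.24 at 48 h and 62.9 ± 18.2 at 24 h (SD, n = 4; adjusted p = 0.872). Exons of the other ribosomal protein genes that a variety listed at both times had a median log2 difference of 0.11 in Bass (20 exons), -0.04 in Harrington (21), 0.25 in Stirling (12) and 0.22 in Baudin (29). All exons listed at both times had medians of -0.03, -0.0041, 0.09 and 0.07 in the same varieties. The exons of the list thus lay above the median of all exons in 3 varieties and below it in Harrington, without a test. The same held without the genes described as 30S, 50S or mitochondrial. The medians were then 0.11 in Bass (18 exons), -0.02 in Harrington (17), 0.25 in Stirling (8) and 0.19 in Baudin (20).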

How the data were processed

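RNA-seq of germinating embryos gave 8 libraries, 1 per variety and time. Per the paper's methods, the authors aligned the reads with SOAP2 (version 2.21) to the Morex genome (IBSC) and called junctions with SOAPsplice (version 1.10). They deposited 1 list of A3S and 1 list of A5S events per library. Each field of the deposited lists holds an exon's start and end, its mean read depth (coverage, not scaled for library size) and one further value. The deposited notes call that value a minimum depth. It lay between 0.5 and 1, and its product with the exon length was whole within 0.01 bases in 100% of the 14246 values under 1, so it was read as the share of covered bases. The comparisons of exon depth between the times did not multiply by this share, whereas the percentages by exon length did. How the depth was computed, and whether unspliced reads of near-identical gene copies or reads of the opposite strand count in it, is not given in the sources used here.

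Python 3.11.15 with pandas 2.3.3 was used to parse the lists. Library factors were the median ratio of exon depth to its geometric mean over libraries. Log2(scaled depth + 0.5), with a mean-variance trend, and the log2 ratio between sites, with 0.5 added to both depths, entered limma (version 3.58.1, R version 4.3.3). The model held variety as a block, and p-values were adjusted by Benjamini-Hochberg over all exons or events. Both fits were tested on simulated data whose changes were larger than the fitted differences of these genes. That test does not show how well differences of their size are called. Of 1384 computed depths between sites, 83 were below 0 and set to 0, none in the 2 genes. The authors' samples pair by variety, since a variety gave embryos at 48 h and at 24 h. Deviations of its libraries from the time means correlated at 0.01 to 0.42 for depth and -0.22 to 0.30 for the ratio.

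The genes named were both genes, for each the 3 genes most correlated with it, and the 2 deepest of the other ribosomal protein genes and any that passed a test. Others were named after their values were seen. The genes and lists were chosen with earlier results of these data known. Gene descriptions were taken from the study's supplementary lists. Alternatives were no scaling, scaling by the median depth, a pseudocount or prior of 1, a mean depth of at least 10, annotated exons alone, at least 20 nt between sites, events with negative values left out, no variety block and each variety left out. Intron retention was not analysed here. Sequences were not used here. With variety as a block or pair, p-values rest on how the difference between the times varied over 4 varieties. Each difference came from single libraries, and limma also drew on the spread of the other exons or events.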

Additional observations from a re-analysis of the deposited data

How the results depend on the processing

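The depth differences of the 4 exons and the ratio differences of both events listed in all libraries kept their sign and stayed past no threshold under every alternative run for them, including both scalings and no replicate block. The log2 difference of exon depth over these alternatives was between 0.17 and 0.49 for the 206-nt exon and between 0.21 and 0.51 for the 166-nt exon of MLOC_34508. For MLOC_7688 it was between 0.18 and 0.51 for the 258-nt exon and between -0.82 and -0.45 for the 69-nt exon. The ratio difference was between -0.32 and -0.13 for the A3S event of MLOC_34508 and between -0.20 and -0.15 for the A5S event of MLOC_7688. Adjusted p over all alternatives was between 0.0872 and 0.847.

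The counts over all features moved more. With all varieties 88 exons were called, and between 12 and 61 when 1 variety was left out. With annotated exons alone, 49 of 182 tested were called, where fewer exons were tested. For the ratio, 0 events were called with variety as a block and 3 without the replicate block, and between 0 and 1 when 1 variety was left out. The samples pair by variety. For exon depth, 92 exons were called with no replicate block, 42 higher and 50 lower at 48 h, and none of the 4 exons was among them. At 20 nt or more between sites the MLOC_7688 event, with 3 nt, could not be tested, and at a mean depth of 10 its 69-nt exon could not.

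With 4 varieties, the exact paired test cannot go below p = 0.13. Reads per junction were not used here, so a change in the use of a site was measured only through depth, and in short stretches near an exon end. An adjusted p above 0.05 does not show that the times were alike.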
